A study of Homo sapiens with 6 samples.

Results

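The non-keratin intermediate filament genes were taken by name from the deposited gene table, as vimentin and nestin together with synemin, alpha-internexin, the neurofilament chains and the lamins. Of 10 genes named, 9 (VIM, NES, SYNM, INA, NEFL, NEFH, LMNA, LMNB1 and LMNB2) were found among the 29185 genes of the table and all 9 passed the filter on low counts, which 15803 genes passed. NEFM, the medium neurofilament chain, was not analysed here. The genes were taken by name, but the list was drawn up with earlier results of these data known. The study itself also picked VIM and NES from these same libraries for follow-up, so that their values here are not independent evidence of their direction.

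The cell line, SKOV3, is an established line of human ovarian cancer. Poly(A) RNA was sequenced from SKOV3 cells carrying a short hairpin against KLF5 (sh-KLF5) and from control cells (sh-NC), with 3 libraries in each group, and the comparison asks which transcripts differ once KLF5, a zinc finger transcription factor, is silenced. The hairpin was delivered in a pLKO.1 vector with EGFP and puromycin resistance and stable cells were selected with puromycin. The labels name 1 silenced line and no other hairpin, and they give the genotype of the controls as WT. The paper's methods and legends speak of independent repetitions in general, and the series text calls the libraries replicates, but neither says whether these libraries came from separate cultures. Therefore p-values measure only the spread between these samples, which may be technical.

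Intermediate filaments are rope-like polymers of coiled-coil proteins, and the genes a cell uses differ by cell type. Vimentin forms the cytoplasmic network of mesenchymal cells and is also made by many carcinoma cell lines, whereas nestin and synemin do not readily form filaments alone and are built into networks of partners such as vimentin. Alpha-internexin and the neurofilament chains are best known from neurons, and the lamins form the meshwork under the inner nuclear membrane of nearly every cell.

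KLF5 was lower in the sh-KLF5 libraries, as the labels imply. The normalised counts, that is reads divided by 1 size factor per library, were 4371, 4425 and 4494 in sh-NC libraries 1 to 3 and 1745, 1439.9 and 1436 in sh-KLF5 libraries 1 to 3, and 34.8% of the control level remained. The libraries held 15852319 to 17543896 reads on genes. Within a group, libraries correlated at 0.979 to 0.990 (Pearson's r across genes, which are not independent replicates), and both pairs with sh-KLF5 library 1 were the lowest of their group, at 0.979 and 0.980 against 0.987 for the other pair. Members and keratins whose call or size depended on that library are therefore also given without it.

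The sequences just upstream of VIM, NES and INA are shown because these genes had the deepest falls and the only higher level among the cytoplasmic members, and because KLF factors are known to bind GC boxes and CACCC boxes. Each line gives 250 bases before a RefSeq gene start on GRCh38.p14, written 5′ to 3′ on the strand of the gene, with matches to the GC box CCGCCC on either strand in capitals. The VIM window is chr10:17227991-17228240 on the + strand, the NES window is chr1:156677408-156677657 on the - strand and the INA window is chr10:103276888-103277137 on the + strand.
VIM: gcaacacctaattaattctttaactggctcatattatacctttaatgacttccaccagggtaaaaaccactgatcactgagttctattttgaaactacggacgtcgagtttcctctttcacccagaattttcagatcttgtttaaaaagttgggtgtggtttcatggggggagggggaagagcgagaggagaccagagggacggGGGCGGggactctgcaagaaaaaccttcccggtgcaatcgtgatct
NES: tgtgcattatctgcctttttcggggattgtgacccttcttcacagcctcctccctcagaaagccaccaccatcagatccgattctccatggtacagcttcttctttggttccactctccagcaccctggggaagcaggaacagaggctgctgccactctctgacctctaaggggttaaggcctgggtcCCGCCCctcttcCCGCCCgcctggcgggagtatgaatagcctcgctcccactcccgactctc
INA: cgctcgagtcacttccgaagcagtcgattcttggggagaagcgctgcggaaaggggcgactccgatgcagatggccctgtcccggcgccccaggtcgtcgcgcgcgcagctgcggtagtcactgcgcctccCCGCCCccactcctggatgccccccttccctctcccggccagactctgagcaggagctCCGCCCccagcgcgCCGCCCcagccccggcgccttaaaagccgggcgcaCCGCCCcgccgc
The VIM window held 1 GC box, the NES window 2 and the INA window 4. For the CACCC box only the letters CCACCC were searched, on either strand, and they were found in none of these windows. The shorter letters CACCC do occur in the VIM and NES windows, and such other forms of the box were not counted. G and C made up 46.0% of the bases in the VIM window, 58.0% in the NES window and 72.8% in the INA window. RefSeq windows were matched for 7 of the 9 genes, 10 windows in all, of which 9 held a GC box and 2 a CACCC box. A GC box stood in 42.64% and a CACCC box in 31.26% of 35116 windows of the same length before RefSeq gene starts, and the letters CCGCCC are more frequent where G and C are more frequent.  A match of letters is a description and not a bound site.

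After KLF5 silencing, VIM, NES and NEFL were down-regulated and no member was up-regulated, as shown in the plot of normalised counts by library. A gene was called when limma gave a Benjamini-Hochberg adjusted p-value under 0.05 over all tested genes and a log2 fold change, on the log2(normalised count + 1) scale, above 1 or below -1. Of the 9 members, 3 were called lower, against 3.37% of all tested genes, and 0 were called higher, against 1.9%. The count of members called higher was also 0 at an unadjusted p under 0.05 with the same fold threshold, with edgeR and with DESeq2. Without the fold threshold 5 members were lower, against 6.85% of tested genes, and 1 was higher, against 6.04%. All 3 sh-KLF5 libraries lay below all 3 sh-NC libraries for 6 members, against 15.9% of tested genes, and above them for 1, against 15.4%. The median log2 fold change of the 9 members was -0.69, and that of all tested genes was -0.0023. VIM and NES had been picked by the study from these same libraries. Their calls, and the counts and median that include them, are therefore not independent evidence about the members. Apart from VIM and NES only NEFL was called, with a log2 fold change of -1.02 right at the threshold.

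**Figure D1:**
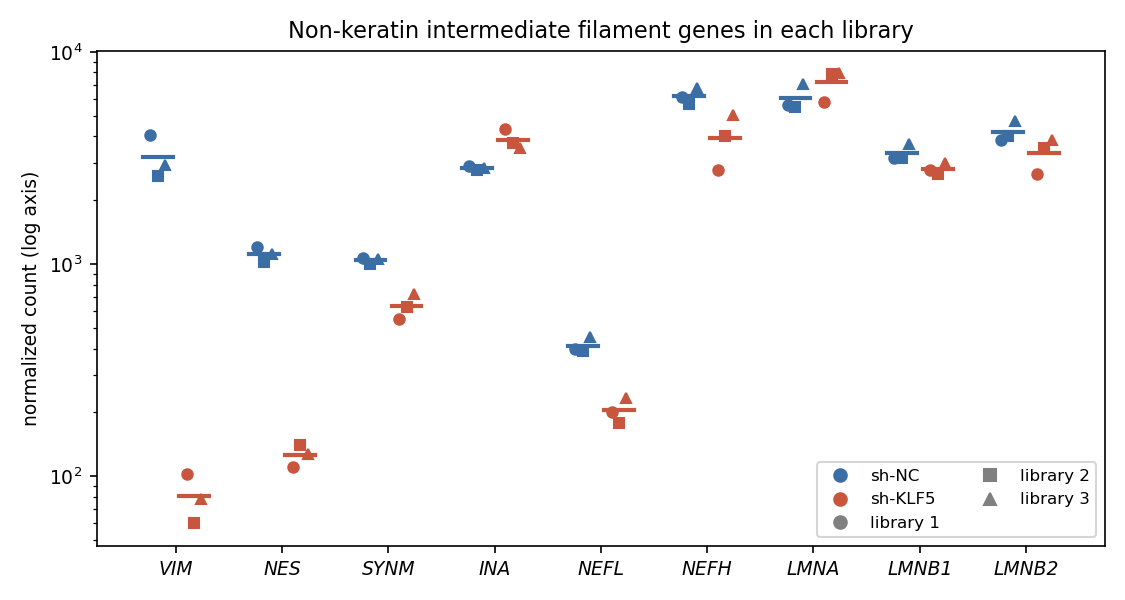
Normalised counts (log scale) of the 9 non-keratin filament genes in each library, with sh-NC and sh-KLF5 libraries side by side and the mean of each group marked by a bar. VIM falls from 2614 to 4068 in sh-NC to 60.2 to 103 in sh-KLF5 and NES from 1019.8 to 1206 to 111 to 139.7, while the group means of the 3 lamin genes lie close together.

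VIM, which encodes vimentin, had the deepest fall of the 9 members. Its normalised counts were 4068, 2614 and 2918 in sh-NC libraries 1 to 3 and 103, 60.2 and 78.2 in sh-KLF5 libraries 1 to 3. The lowest sh-NC library thus stood far above the highest sh-KLF5 library. The means were 3200.0 ± 767 (SD, n = 3) and 80.4 ± 21.5 (SD, n = 3), a remainder of 2.51%. This corresponds to a log2 fold change of -5.30 (standard error 0.19, 95% confidence interval -5.71 to -4.90, adjusted p = 1.2e-10 from limma). In bulk RNA, fewer cells of a type and less RNA per cell cannot be told apart. On GRCh38, VIM (ENSG00000026025) spans 17228259 to 17237593 of chromosome 10 (+ strand), and 24.4% of its exonic bases also belong to VIM-AS1 or AL133415.1 on the opposite strand in GENCODE release 29. VIM-AS1 itself was not tested, since it had 5, 0 and 2 reads in sh-NC and none in sh-KLF5. The strand setting of the counting is not given in the sources used here, and the reads of such a pair cannot then be told apart.

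NES, which encodes nestin, was down-regulated less deeply than VIM. Its normalised counts were 1206, 1019.8 and 1116 in sh-NC libraries 1 to 3 and 111, 139.7 and 127 in sh-KLF5 libraries 1 to 3. The groups did not overlap, and both were narrow. The means were 1114 ± 93.0 (SD, n = 3) and 126 ± 14.4 (SD, n = 3), or 11.3% of control, with a log2 fold change of -3.14 (standard error 0.14, 95% confidence interval -3.43 to -2.84, adjusted p = 9.4e-10 from limma). NES (ENSG00000132688) spans 156668763 to 156677397 of chromosome 1 (- strand), has 1 annotated transcript and shares no exonic base with another gene. Within each library, VIM reads per NES read were 3.37, 2.56 and 2.61 in sh-NC and 0.927, 0.431 and 0.614 in sh-KLF5, so that VIM went from the more to the less counted of the pair. The log2 ratio differed by -2.17 between groups (two-sided exact permutation p = 0.1, the lowest value 3 against 3 libraries can give).

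Some markers of fibroblasts and mesothelium, in which vimentin is abundant, were lower together with VIM and NES and others were not. Of the 10 markers listed, 8 were tested and 5 (COL1A2, COL3A1, DCN, PDGFRA and THY1) were called lower, and 3 of the 10 had 3 reads or fewer in every sh-KLF5 library. Over all tested genes, 3.37% were called lower. COL1A1 went the other way without passing the test, with a log2 fold change of 0.30 (limma, adjusted p = 0.539), the groups overlapped for COL1A1, LUM, PDGFRB and CALB2, and MSLN had a log2 fold change of -0.71 that lay under the fold threshold (limma, adjusted p = 0.00868). The summed normalised count of the 10 markers was 1424 to 1947 in sh-NC and 545 to 881 in sh-KLF5. Of the ovarian carcinoma and epithelial markers, 9 of 10 were in the table and 3 (KRT8, MUC16 and MUC1) were called lower. The groups overlapped for EPCAM, PAX8 and KRT19, and none of these passed the test (limma, adjusted p = 0.954, 0.407 and 0.285). Their log2 fold changes were -0.03, -0.25 and 1.14. The sum was 54402 to 66403 in sh-NC against 28605 to 39112 in sh-KLF5. Most of it came from KRT7 and KRT8 (means of 32104 and 21816 in sh-NC), so that keratin transcripts were abundant in both groups. Endothelial markers summed to 66.1 to 87.0 and 34.1 to 73.7, with CDH5 at 3 reads or fewer in all libraries. Leukocyte markers summed to 149 to 223 and 191 to 379, nearly all of it CD14, and the other 3 markers were at 3 reads or fewer in all libraries. The part of these markers in the falls of VIM and NES was not tested.

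SYNM, which encodes synemin, was lower by less than the fold threshold. Its normalised counts were 1071, 1005 and 1059 in sh-NC libraries 1 to 3 and 553, 626 and 723 in sh-KLF5 libraries 1 to 3, and the groups did not overlap. The means were 1045 ± 35.0 and 634 ± 85.0 (SD, n = 3 each), or 60.7% of control. The log2 fold change was -0.73 (standard error 0.13, 95% confidence interval -0.99 to -0.46, adjusted p = 7.99e-04 from limma). Of the exonic bases of SYNM (chromosome 15, from 99098217 to 99135593), 27.7% are shared with 2 genes on the opposite strand.

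Among the neuronal filament genes, NEFL was called lower, NEFH was lower by less than the fold threshold and INA was higher by less than it, as seen in the plot of fold changes. NEFL, the light neurofilament chain, had normalised counts of 398, 390.2 and 451 in sh-NC and 202, 178 and 235 in sh-KLF5, with no overlap. The means were 413 ± 32.9 and 205 ± 28.6 (SD, n = 3 each), or 49.5% of control, and the log2 fold change of -1.02 (standard error 0.15, 95% confidence interval -1.34 to -0.70, adjusted p = 2.07e-04 from limma) lay right at the threshold. It was -0.95 without sh-NC library 3 and -0.92 without sh-KLF5 library 2, and was then not called. NEFH, the heavy chain, had 6105, 5705 and 6763 in sh-NC and 2773, 4025 and 5045 in sh-KLF5 libraries 1 to 3, so that the sh-KLF5 libraries differed among themselves by about as much as the group means did. Its log2 fold change was -0.69 (standard error 0.17, 95% confidence interval -1.05 to -0.33, adjusted p = 0.0117 from limma), and -0.45 without sh-KLF5 library 1. Without sh-NC library 3 its adjusted p from limma was 0.0911. Of the exonic bases, 11.3% of those of NEFL and 8.80% of those of NEFH are shared with a gene on the opposite strand.

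INA, which encodes alpha-internexin, was the only member with a higher level at an adjusted p under 0.05. Its normalised counts were 2902, 2779 and 2843 in sh-NC libraries 1 to 3 and 4347, 3729 and 3510.3 in sh-KLF5 libraries 1 to 3, without overlap. The means were 2841 ± 61.7 and 3862 ± 434 (SD, n = 3 each), or 136% of control. The log2 fold change was 0.44 (standard error 0.12, 95% confidence interval 0.19 to 0.68, adjusted p = 0.0187 from limma), under the fold threshold. Leaving out any 1 of the 3 sh-NC libraries took the adjusted p from limma above 0.05, up to 0.110. INA shares no exonic base with another gene.

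**Figure D2:**
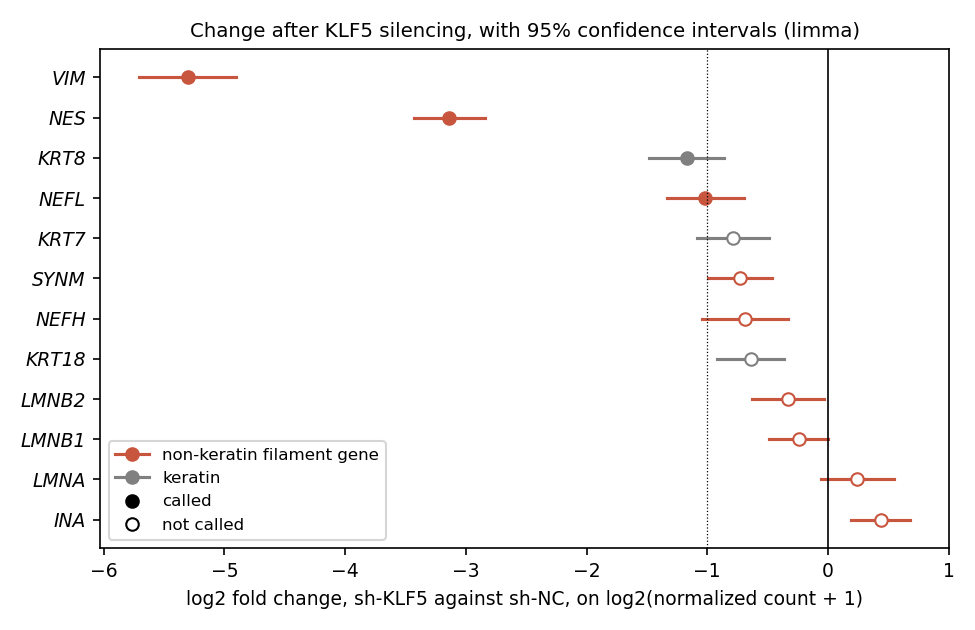
Log2 fold change of each non-keratin filament gene, sh-KLF5 against sh-NC, on the log2(normalised count + 1) scale, with 95% confidence intervals from limma and a dotted line at -1. Filled points are called genes and open points are genes not called, and the keratins KRT7, KRT8 and KRT18 are added in grey. VIM (-5.30) and NES (-3.14) stand clear of the threshold, NEFL (-1.02) lies on it, and the other 6 non-keratin genes lie between -0.73 and 0.44.

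The 3 lamin genes were not called in either direction. LMNA, which encodes lamins A and C, had normalised counts of 5614, 5494 and 7079 in sh-NC and 5802, 7867 and 7928 in sh-KLF5 libraries 1 to 3, and the groups overlapped. Its log2 fold change was 0.24 (95% confidence interval -0.06 to 0.54, adjusted p = 0.306 from limma), and 0.39 with an adjusted p of 0.0151 without sh-KLF5 library 1. LMNB1, a B-type lamin, had 3168, 3156 and 3685 in sh-NC and 2788, 2656 and 3004 in sh-KLF5, giving a log2 difference of -0.24 (95% confidence interval -0.49 to 0.00048, limma adjusted p = 0.192), which did not pass the test. These groups did not overlap. LMNB2, the other B-type lamin, had 3824, 4010.4 and 4716 in sh-NC and 2656, 3542 and 3832 in sh-KLF5, with a log2 fold change of -0.33 (95% confidence interval -0.63 to -0.04, adjusted p = 0.14 from limma), and here 1 sh-KLF5 library reached into the sh-NC range. Without sh-KLF5 library 1 its log2 fold change was -0.18 (limma, adjusted p = 0.266). Of the exonic bases of LMNB2, 5.58% are shared with TIMM13 or MIR7108 on the same strand. The table counts reads per gene, so that lamin A and lamin C, which are splice forms of LMNA, were not separated.

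The balance between LMNA and the B-type lamins differed between the groups without overlap. LMNA reads per LMNB2 read were 1.47, 1.37 and 1.501 in sh-NC and 2.18, 2.22 and 2.07 in sh-KLF5, and LMNA reads per LMNB1 read were 1.77, 1.74 and 1.92 against 2.08, 2.96 and 2.64. The log2 ratio to LMNB2 was higher by 0.58 in sh-KLF5 and that to LMNB1 by 0.49 (two-sided exact permutation p = 0.1 for each, the lowest possible). A ratio within a library does not depend on its size factor. It shows unequal change and not which of the genes changed.

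The make-up of the cytoplasmic filament transcripts is shown in the plot of shares, in which the shares of VIM and NES were smaller and that of INA larger in sh-KLF5. Counts were divided by exonic length for this, and the summed level of VIM, NES, SYNM, INA, NEFL and NEFH was 3566 ± 253 normalised counts per kb in sh-NC, against 2406 ± 186 after silencing (SD, n = 3 each). The exonic length joins all annotated transcripts of a gene, 10 for VIM but 1 each for NES, INA and NEFH. The size of a share against that of another gene therefore depends on the annotation. VIM made up 17.3% ± 3.24 of that sum in sh-NC and 0.655% ± 0.211 in sh-KLF5, and NES 5.62% ± 0.163 and 0.944% ± 0.0992 (SD, n = 3 each). The share of INA was 24.7% ± 1.32 and 50.2% ± 9.33, with 60.2%, 48.6% and 41.7% in sh-KLF5 libraries 1 to 3. This larger share reflects the smaller sum as well as the higher level of INA. The share of NEFH was 45.9% ± 2.80 and 42.9% ± 9.35, although its level went from 1637 to 1044 normalised counts per kb. Among the lamins the sum was 2557 ± 294 per kb in sh-NC and 2421 ± 300.0 in sh-KLF5, with LMNA at 33.9% and 42.4% of it.

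**Figure D3:**
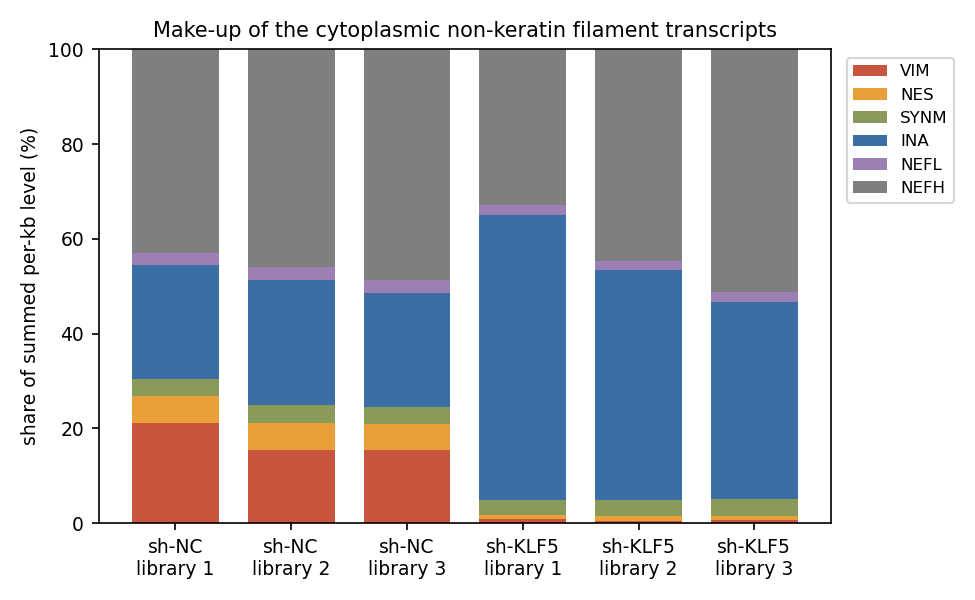
Share of each gene in the summed length-scaled level of the 6 cytoplasmic members, in percent, as a stacked bar for each of the 6 libraries. VIM goes from 17.3% to 0.655% on average and INA from 24.7% to 50.2%, and INA and NEFH make up nearly all of the bars in sh-KLF5.

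By level per kb, the order in sh-NC was NEFH (1637), LMNB1 (918), INA (879), LMNA (868), LMNB2 (770.2), VIM (620.4), NES (200.4), SYNM (134) and NEFL (95.5). The neighbours from LMNB1 down to VIM overlapped in their libraries and so did not differ beyond their spread, and the other neighbours did not overlap. In sh-KLF5 the order was INA (1195), NEFH (1044), LMNA (1031), LMNB1 (775), LMNB2 (615), SYNM (81.1), NEFL (47.3), NES (22.7) and VIM (15.6), and here INA, NEFH and LMNA overlapped. VIM thus went from rank 6 to rank 9. The order between genes depends on the exonic length, which joins all annotated transcripts (25 for LMNA, 10 for VIM, 1 each for NEFH, INA and NES).

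Related filament genes and genes that work with these filaments were read list by list. Of all tested genes, 3.37% were called lower and 1.9% higher. Of 8 further non-keratin filament genes, 5 were tested and 1 was lower, IFFO1, an orphan member of the family, with 35, 25 and 22 reads in sh-NC and 2, 20 and 4 in sh-KLF5 (log2 fold change -2.03, adjusted p = 0.0312 from limma). That call rests on few reads and was lost with edgeR and in 5 of the 6 fits that left out a library. Of 6 linker genes, which tie filaments to each other and to junctions, 1 was lower, PPL, which encodes the desmosomal plakin periplakin, from 2956 ± 151 to 890.1 ± 168 normalised counts (SD, n = 3 each, log2 fold change -1.75, adjusted p = 3.38e-07 from limma). Plectin (PLEC), a linker that binds vimentin, had the highest level of them per kb, with 34920 ± 2036 normalised counts in all in sh-NC against 30652 ± 7487 in sh-KLF5 (SD, n = 3 each), and its log2 fold change of -0.22 did not pass the test (limma, adjusted p = 0.414).

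Of 12 nuclear envelope partners of the lamins, 1 was called lower, against 3.37% of all tested genes. This was SYNE1, which encodes a giant protein of the outer nuclear membrane that links the nucleus to the cytoskeleton. Its normalised counts were 962, 1087 and 859 in sh-NC libraries 1 to 3 against 245, 284 and 332 (log2 fold change -1.76, adjusted p = 4.81e-07 from limma). At an adjusted p under 0.05 and any fold, 1 of the 12 was higher, against 6.04% of tested genes. This was LBR, with a log2 fold change of 0.46 under the fold threshold (limma, adjusted p = 0.0291). BANF1, a chromatin-binding partner of lamins and the highest of the list per kb, had 959 and 1031 normalised counts per kb. Of 5 lamin processing enzymes 0 were called by limma or by edgeR, and 0 had an unadjusted p under 0.05 in limma. Over all genes, 4134 of the 15803 tested had an unadjusted p under 0.05 in limma. The highest per kb was ZMPSTE24, the protease that matures prelamin A, at 912 and 831 per kb. Of 4 genes of filament turnover and chaperones, 3 were tested and 0 were called by limma or by edgeR, although all 3 had an unadjusted p under 0.05 in limma, and HSPB1, a small heat shock protein, was the highest at 1240.1 and 1631 per kb.

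Of the 4 simple keratins, the filament proteins typical of epithelia, 3 had an adjusted p under 0.05 in limma and a lower level, against 6.85% of all tested genes. Of the 4, 1 was called lower, against 3.37% of tested genes. This was KRT8, whose normalised counts averaged 21816 ± 2074 (sh-NC) and 9817 ± 2027 (sh-KLF5; SD, n = 3 each), with a log2 fold change of -1.17 (limma, adjusted p = 4.35e-05). Without sh-KLF5 library 1 its log2 fold change was -0.99, and it was no longer called. KRT18, its partner, had a log2 fold change of -0.64 (limma, adjusted p = 0.00343), and KRT7 one of -0.78. In the deposited coordinates the bodies of KRT8 and KRT18 overlap. VIM reads per KRT18 read were 0.998, 0.803 and 0.776 in sh-NC and 0.0513, 0.0221 and 0.0326 in sh-KLF5, and the log2 ratio differed by -4.66 (two-sided exact permutation p = 0.1, the lowest possible).

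The levels of the genes close to VIM and NES are shown in the plot of fold changes by distance. Of the 10 genes with any base within 0.5 Mb of VIM, 5 were tested and 2 were called lower, against 3.37% of all tested genes. These were CUBN, which encodes the endocytic receptor cubilin, and TRDMT1, a tRNA methyltransferase. CUBN had 131, 92 and 87 reads in sh-NC and 1, 1 and 0 in sh-KLF5, and TRDMT1 had 50, 27 and 21 reads against 3, 0 and 0. Both are near 0 in the sh-KLF5 libraries, where the fitted fold change depends on the pseudocount. Their bodies end 98.4 kb and 26.2 kb before the start of VIM. RSU1, which encodes a protein of integrin adhesions and ends 411 kb before VIM, averaged 1027 ± 60.8 and 612 ± 53.5 normalised counts (SD, n = 3 each), a log2 fold change of -0.75 (limma, adjusted p = 4.38e-04) that lay under the fold threshold. On the other side, HACD1 and STAM had log2 fold changes of -0.23 and 0.02 and were not significant (adjusted p = 0.479 and 0.959 from limma). ST8SIA6 lies nearer on that side, 80.8 kb beyond VIM, and was too low to be tested. It had 16, 9 and 4 reads in sh-NC and 1, 0 and 0 in sh-KLF5.

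Around NES, 46 genes had a base within 0.5 Mb, 22 were tested and 2 were called lower, against 3.37% of all tested genes. CRABP2, which encodes a retinoic acid binding protein, had normalised counts of 68.9, 69.0 and 82.8 against 23.4, 11.6 and 23.1 (log2 fold change -1.93, adjusted p = 4.63e-04 from limma) and lies 22.2 kb beyond NES. AL365181.3, annotated as antisense and lying within the span of BCAN on the other strand, had 36, 20 and 32 reads against 4, 6 and 6 (log2 fold change -2.23, adjusted p = 0.00221 from limma). BCAN, chosen after its values were seen, was too low to be tested, with 16, 10 and 9 reads in sh-NC and none in sh-KLF5. LMNA, on the same chromosome, ends 529 kb before NES. Around the other 7 members, limma called 0 of the tested genes for SYNM, INA, NEFL, NEFH and LMNA (1 of 7, 3 of 12, 1 of 4, 4 of 18 and 3 of 27 had an unadjusted p under 0.05 at any fold), 1 lower and 1 higher of 7 for LMNB1, and 1 lower of 26 for LMNB2. Over all genes, 4134 of the 15803 tested had an unadjusted p under 0.05, and 3.37% were called lower and 1.9% higher.

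**Figure D4:**
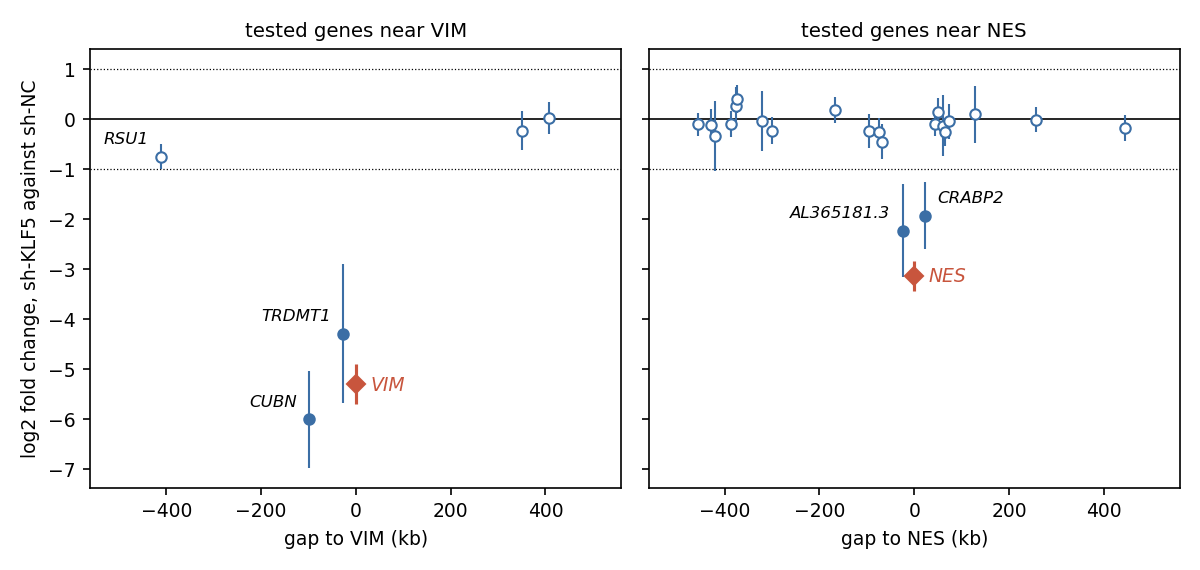
Log2 fold change (sh-KLF5 against sh-NC) of the tested genes within 0.5 Mb of VIM and of NES, plotted by distance from the gene in kb. Filled points are called genes, open points are genes not called, diamonds are VIM and NES themselves, and bars are 95% confidence intervals from limma. CUBN and TRDMT1 lie low beside VIM, with 3 reads or fewer in every sh-KLF5 library so that the depth of their points depends on the pseudocount, and CRABP2 (-1.93) and AL365181.3 (-2.23) lie low beside NES.

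Among the genes whose pattern over the 6 libraries was most like that of VIM was SV2A, which encodes a synaptic vesicle protein, at a Euclidean distance of 0.537 on log2 values centred on the sh-NC mean. ZNF608, NLGN1 and KLHL14 followed at 0.608, 0.615 and 0.658, with 0 to 1 reads in the sh-KLF5 libraries, where the distance depends on the pseudocount. For NES they were ANK2, an ankyrin (0.430), TBX2, a T-box transcription factor (0.446), FKBP10, a prolyl isomerase (0.526), CRAT (0.629) and SPATA18 (0.734). The 6 libraries are 2 groups of 3, so that a small distance mostly says that a gene fell by a like amount.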

How the data were processed

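RNA-seq of 3 sh-NC and 3 sh-KLF5 libraries of SKOV3 cells was used. Groups and replicate numbers came from the sample titles. The submitters' processing notes name HISAT2 2.0.5, featureCounts 1.5.0-p3, DESeq2 1.20.0 and hg38, with no roles. The authors deposited a normalized signal per gene and library, that is reads divided by 1 factor per library. The deposited group means, log2 fold changes and p-values of the authors' own comparison were not used.

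Reads were recovered by dividing by the step of each library (100% whole, within 0.001). Groups were compared with limma 3.58.1 (R 4.3.3, trend and robust) on log2(normalized count + 1) over the 15803 of 29185 genes passing filterByExpr of edgeR (minimum count 10), with Benjamini-Hochberg adjustment over all of them. A pseudocount of 1 understates changes of low genes. A count of 0 allows up to 3 reads, for counting error only. Ratios were tested with exact permutation tests. The alternatives were edgeR 4.0.16 and DESeq2 1.42.0 on recovered reads, other scalings, pseudocounts, filters and thresholds, a replicate block, and leaving out each library. The statistics were tested on simulated data. Exons and overlaps came from GENCODE release 29, whose GRCh38 coordinates matched 100% of the genes, and promoters from RefSeq (GRCh38.p14).

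The members and lists were chosen with earlier results of these data known. The named genes are all members, KLF5, called genes and the highest of each list, called genes within 0.5 Mb of VIM or NES, and the 5 genes nearest in pattern to each. A gene covered by this rule is not reported here. EPPK1, RSU1, HACD1, STAM, ST8SIA6, LBR, KRT7 and BCAN were chosen after their values were seen. Pairs of libraries in a group differed by more than sampling noise (chi-square per degree of freedom 4.69 to 33.3). Plots used matplotlib 3.10.9 (Python 3.11.15).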

Additional observations from a re-analysis of the deposited data

How the results depend on the processing

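No result reversed under any alternative. The members called lower numbered 3 in each alternative test, scaling, pseudocount and filter, 5 without the fold threshold, and 2 to 3 with 1 library left out, where NEFL was lost without sh-NC library 3 or sh-KLF5 library 2. The members called higher numbered 0, and 1 (INA) without the fold threshold. VIM kept a log2 fold change of -5.50 to -5.11 and NES of -3.21 to -3.05 with each library left out in turn. At an adjusted p under 0.05 and any fold, a comparison added after seeing the data, 4 to 5 members were lower and 0 to 2 higher with 1 library left out, since INA was lost without any sh-NC library and LMNA was added without sh-KLF5 library 1. Calls among the further filament genes were 0 with edgeR, 0 when every library had to hold 10 reads, and 0 to 1 with 1 library left out, because the call of IFFO1 was kept only without sh-KLF5 library 2. Linker calls were 1 to 2, the second being EPPK1 (log2 fold change -1.07) without sh-KLF5 library 3, and simple keratin calls 0 to 1, with KRT8 lost without sh-KLF5 library 1. The cause of these changes was not tested. The log2 ratio difference of LMNA to LMNB1 was 0.37 to 0.63, and that of LMNA to LMNB2 0.54 to 0.61, with 1 library left out. Same-numbered libraries were not paired by the labels, their deviations correlated at 0.0331 to 0.059, and a fit blocked on replicate number gave these counts: 3 members were called lower and 0 higher, 6 were lower at an adjusted p under 0.05 and any fold, and over all genes 567 were lower and 327 higher. Over all genes, the filter of 10 reads per library left 231 lower and 241 higher calls, against 533 and 301, and the unfiltered table gave 811 and 381. At these depths a gene with 3 reads or fewer in a group cannot be given a precise fold change.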
